A study of Homo sapiens with 6 samples.

Results

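Class 3 semaphorins are secreted guidance proteins, first known for repelling growing axons and since studied in blood vessel growth and tumour cell migration. Most of them bind a neuropilin, NRP1 or NRP2, which has only a short intracellular part and passes the signal on through a plexin A receptor. SEMA3E is the exception, since it binds plexin D1 (PLXND1) without a neuropilin, and NRP1 and NRP2 also serve as co-receptors for vascular endothelial growth factors. The gene set described here held 10 genes: the ligands SEMA3A to SEMA3G, both neuropilins and PLXND1. Each gene was read from the array row whose annotation gave its symbol alone, and for 9 of the 10 there was exactly 1 such row. The row of SEMA3E was annotated to a second gene, RNF13, as well, so SEMA3E was left out of the counts and its shared row was read on its own. These 9 genes stand among 14232 genes tested from the 22011 rows of the table. The family was chosen by measured values of the same comparison, because the lower level of SEMA3D in the knockdown was already known, so SEMA3D's change is given as a description and supports nothing about the family.

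The cells were Ishikawa H, a human endometrial cancer line from a well differentiated, grade 1 endometrioid tumour that carries a mutation in p53. They were grown in serum-containing medium without further treatment. The MTDH knockdown group (3 arrays) stably carried a short hairpin RNA that targets MTDH, the gene of metadherin, which has been studied for its role in resistance to chemotherapy, and the MTDH control group (3 arrays) was its control. Per the labels, the lines were grown from separate clones that survived puromycin and were picked by a protein blot. Which array came from which clone is not stated, so clone and knockdown cannot be told apart. Replicates are labelled biological, with no word on separate cultures, so the p-values measure the spread between these samples only.

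MTDH itself was measured first. Its log2 value was 6.89, 7.04 and 6.63 on control arrays 1, 2 and 3, and 5.77, 5.89 and 5.84 on knockdown arrays 1, 2 and 3. All 3 knockdown arrays lay below all control arrays, and MTDH fell by 1.02 on the log2 scale (SE 0.17, 2.02-fold, adjusted p = 0.029, limma with Benjamini-Hochberg adjustment over all genes tested). The call was lost when control array 1 (adjusted p = 0.16) or any 1 of the knockdown arrays (0.15, 0.12 and 0.11 without arrays 1, 2 and 3) was left out, with the log2 difference between -1.13 and -0.92, and also when all rows were tested (0.0997) or arrays were centred on the median (0.096).

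Across arrays, the correlation over genes ranged from 0.900 to 0.980, and without control array 3 the lowest was 0.959. Control array 3 stood apart in shape: compared with the other controls, its 2731 genes with a mean log2 value above 6 read lower by a median of 0.35 (log2 difference -0.35), whereas the other 11501 read higher by a median of 0.22. Every member except SEMA3A had a mean at or below 6. SEMA3B, SEMA3F, SEMA3G, NRP1, NRP2 and PLXND1, 6 of the 9, had their highest value of all 6 arrays on control array 3, while SEMA3A and SEMA3C had their lowest control value there. The part of that array's shape in the differences was not tested. The epithelial markers EPCAM, KRT8, KRT18, CDH1, CLDN3, PAX8 and SOX17 were among the brighter genes, and 8 of the 14 in that list lay above the upper quartile, whereas the estrogen and progesterone receptor genes ESR1 and PGR and the factor ELF3 lay below the lower quartile.

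One member changed past the threshold of an adjusted p of 0.05, and it was a ligand: SEMA3D was lower in the knockdown. The share of all genes called in either direction was 0.597% (85 of 14232), and 0.225% were called lower. SEMA3A moved the other way by 1.23 on the log2 scale without passing the threshold, and SEMA3C was the only other member whose 95% interval left out 0. The log2 differences of the remaining 6 members ranged from -0.33 to -0.07. The plot of the members on each array shows SEMA3D and SEMA3A as the pair with the widest gaps between the groups.

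**Figure D1:**
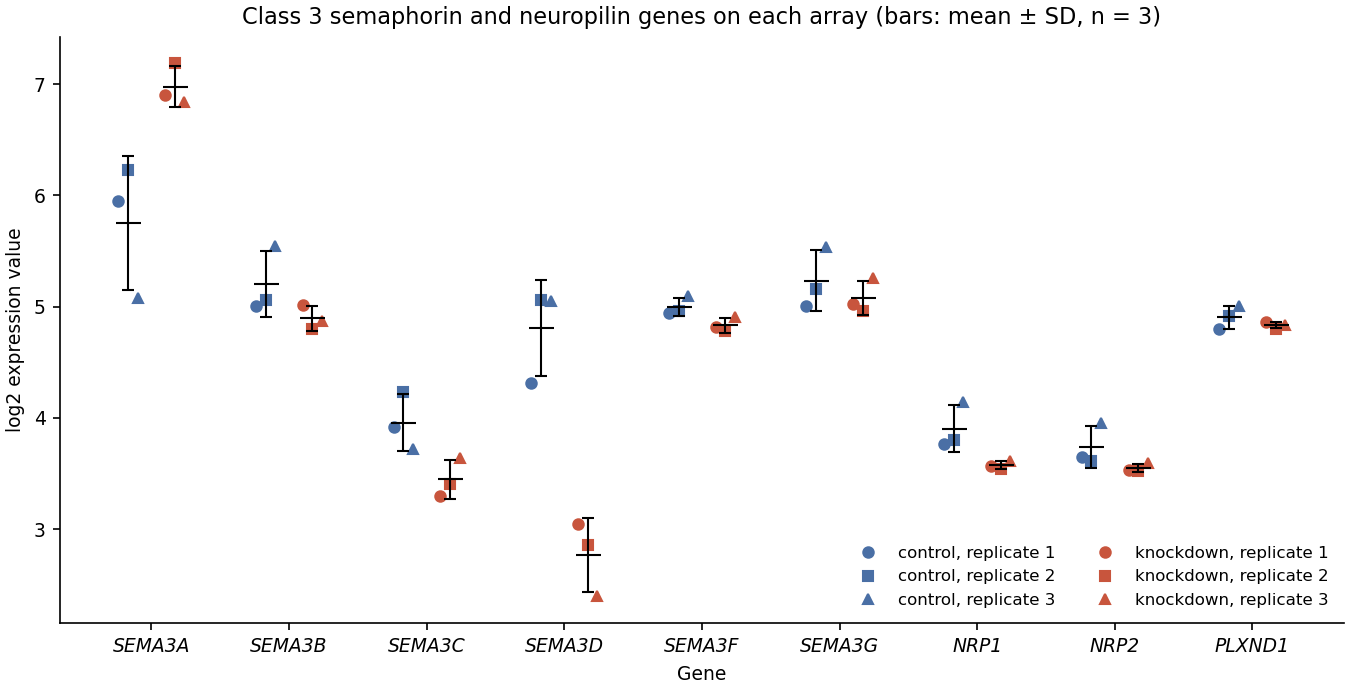
The log2 expression value of each member gene (vertical axis) on each array, with control arrays in blue and knockdown arrays in red, symbols for replicates 1 to 3, and bars for the mean ± SD of 3 arrays. SEMA3D sits between 4.31 and 5.06 on the control arrays and between 2.40 and 3.05 on the knockdown arrays, while SEMA3A is higher on all 3 knockdown arrays and its lowest control value is on array 3.

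SEMA3D, a secreted class 3 ligand known from axon guidance and from heart and vessel development, read 4.31, 5.06 and 5.05 on control arrays 1, 2 and 3. On knockdown arrays 1, 2 and 3 it read 3.05, 2.86 and 2.40. The groups did not overlap, and the highest knockdown value lay more than 1 log2 unit below the lowest control value. The mean went from 4.81 ± 0.43 (SD, n = 3) to 2.77 ± 0.34, a log2 difference of -2.04 (SE 0.24, 95% interval -2.58 to -1.50) or a 4.11-fold lower level. It was the second most negative of the 14232 log2 differences (adjusted p = 0.0053, limma). Leaving out 1 array at a time kept the difference between -2.29 and -1.85, with adjusted p-values from 0.0090 to 0.033. When rows without a single gene name were tested as well, the adjusted p was 0.057 at the same difference. Over the genes tested, the control mean lay near the medians of the arrays (4.59 to 4.86), and the knockdown mean lay below their lower quartiles (3.71 to 4.06). No detection call was used, so at that level the array cannot separate a low transcript from background, and in a bulk sample fewer expressing cells and less RNA per cell cannot be told apart.

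For the member that changed, the window from 250 bases before to 50 bases after a RefSeq transcript start is shown as the reference promoter region (GRCh38.p14, chr7:85187007-85187306, minus strand, 5′ to 3′); the array measured no binding there. Capitals mark the matches to 4 motifs searched on both strands.
SEMA3D: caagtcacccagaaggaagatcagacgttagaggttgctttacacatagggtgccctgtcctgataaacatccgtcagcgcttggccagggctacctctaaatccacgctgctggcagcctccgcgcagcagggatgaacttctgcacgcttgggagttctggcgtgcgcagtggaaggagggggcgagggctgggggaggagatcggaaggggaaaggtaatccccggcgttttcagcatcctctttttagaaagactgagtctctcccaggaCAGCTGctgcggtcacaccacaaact
The motifs were the TATA box TATAAA, the CCAAT box CCAAT, the GC box GGGCGG and the E-box CANNTG. The window held 1 match, to the E-box, at positions 275 to 280 from its 5′ end, and it overlapped no other motif. Of 35114 RefSeq promoter windows of the same length, 68.7% held the E-box letters, 45% the GC box, 34.6% the CCAAT box and 11.5% the TATA box. Windows were found for 8 of the 10 genes, 16 windows in all, and none for SEMA3A or NRP1. The GC content of the SEMA3D window was 57%, against a median of 58.7% over all windows. Among the members' windows it ranged from 35.7% in a SEMA3E window to 87.3% in the PLXND1 window.

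SEMA3A, the founding ligand of the class and a repellent of sensory axons through NRP1, read 5.95, 6.23 and 5.08 on control arrays 1, 2 and 3. On knockdown arrays 1, 2 and 3 it read 6.91, 7.19 and 6.84. Every knockdown array was above every control array, and the controls were spread widely because of the low value on array 3. The mean log2 value was 5.75 ± 0.60 in the control and 6.98 ± 0.18 in the knockdown, a log2 difference of 1.23 (SE 0.27, 95% interval 0.63 to 1.82, 2.34-fold). This was the 28th highest of all log2 differences, but it did not pass the threshold (unadjusted p = 0.00089, adjusted p = 0.085, limma). Without control array 3 the difference was 0.89 (adjusted p = 0.066), and without control array 2 it was 1.47 (adjusted p = 0.020). Other settings gave higher adjusted p-values (limma): 0.34 without knockdown array 2, 0.23 when all rows were tested, 0.14 under quantile normalization and 0.16 under centring on the median. SEMA3A was the only member with a positive difference, except that PLXND1 also turned positive under quantile normalization and under centring on the median.

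SEMA3C, a ligand that acts through both neuropilins and has been studied as a factor in tumour growth, read 3.92, 4.24 and 3.72 on the control arrays. It read 3.30, 3.40 and 3.64 on the knockdown arrays. The groups did not overlap, but the closest pair of values lay under 0.1 apart, between control array 3 and knockdown array 3. The log2 difference was -0.51 (SE 0.19, 95% interval -0.92 to -0.10, unadjusted p = 0.020, adjusted p = 0.28, limma), and leaving out 1 array at a time gave -0.63 to -0.37. SEMA3C was dim, with mean values of 3.96 ± 0.26 and 3.45 ± 0.18.

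SEMA3B and SEMA3F, ligands whose genes lie close together on chromosome 3 and that are known as candidate tumour suppressors, differed less. SEMA3B read 5.01, 5.06 and 5.54 on the control arrays and 5.02, 4.80 and 4.87 on the knockdown arrays. The groups overlapped, and the log2 difference of -0.31 (95% interval -0.72 to 0.11, adjusted p = 0.46, limma) became -0.14 without control array 3. SEMA3F read 4.94, 4.96 and 5.09 on the control arrays and 4.81, 4.78 and 4.91 on the knockdown arrays. Its groups were apart by a narrow margin, with a log2 difference of -0.17 (95% interval -0.51 to 0.18, adjusted p = 0.60) that was -0.12 without control array 3.

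SEMA3G, a ligand that uses NRP2 and is known from endothelial cells, read 5.00, 5.16 and 5.54 on the control arrays and 5.03, 4.96 and 5.25 on the knockdown arrays. The groups overlapped, the log2 difference was -0.15 (95% interval -0.57 to 0.26, adjusted p = 0.68, limma), and it was -0.0022 without control array 3. The row shared by SEMA3E, the plexin D1 ligand, and RNF13, a ubiquitin ligase gene, read 2.45, 2.56 and 2.74 on the control arrays and 2.23, 2.58 and 2.63 on the knockdown arrays. These values lay low on every array and overlapped, with a log2 difference of -0.11 (95% interval -0.52 to 0.31, adjusted p = 0.80 over all rows), and they cannot be assigned to either gene.

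Both co-receptor genes were dim and showed small differences. NRP1 read 3.76, 3.80 and 4.15 on the control arrays and 3.57, 3.54 and 3.62 on the knockdown arrays. NRP2 read 3.65, 3.61 and 3.95 on the control arrays and 3.53, 3.52 and 3.59 on the knockdown arrays. For both, every knockdown value was below every control value, and the highest control value came from array 3. The log2 difference was -0.33 for NRP1 (95% interval -0.70 to 0.04, adjusted p = 0.40, limma) and -0.19 for NRP2 (95% interval -0.55 to 0.17, adjusted p = 0.58). Without control array 3 these became -0.21 and -0.08.

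PLXND1, the signalling receptor for SEMA3E, read 4.80, 4.92 and 5.00 on the control arrays and 4.86, 4.80 and 4.84 on the knockdown arrays. The groups overlapped. The log2 difference was -0.07 (95% interval -0.41 to 0.27, adjusted p = 0.82, limma), it was -0.023 without control array 3, and its sign turned under quantile normalization (0.016) and under centring on the median (0.027).

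Over the 9 members, 8 log2 differences were negative, where 60.7% of all genes tested were negative. Under quantile normalization and under centring on the median 7 were negative, where 54.9% and 47.2% of all genes were. With the values as deposited, the median difference of the members was -0.19, against -0.08 over all genes. Without control array 3 it was -0.12, against -0.02 over all genes. The deposited values step in row order: the median difference was 0.05 over the 6005 tested genes in the first part of the table (43.9% negative) and -0.15 over the 8227 in the second (73.0% negative). The first part held 8 of the 9 members, with a median difference of -0.18, and the second held NRP1. The groups did not overlap for 6 members, SEMA3A, SEMA3C, SEMA3D, SEMA3F, NRP1 and NRP2, where 20.0% of all genes did not overlap, and 5 of these 6 were lower. Because the comparison itself had chosen the family, nothing is read from these shares. On single arrays, the median of the members against their control means was 0.21 on control array 3, -0.11 and -0.04 on control arrays 1 and 2, and -0.20, -0.28 and -0.15 on knockdown arrays 1, 2 and 3. The plot of the differences shows intervals of similar width around 0 for 6 members.

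**Figure D2:**
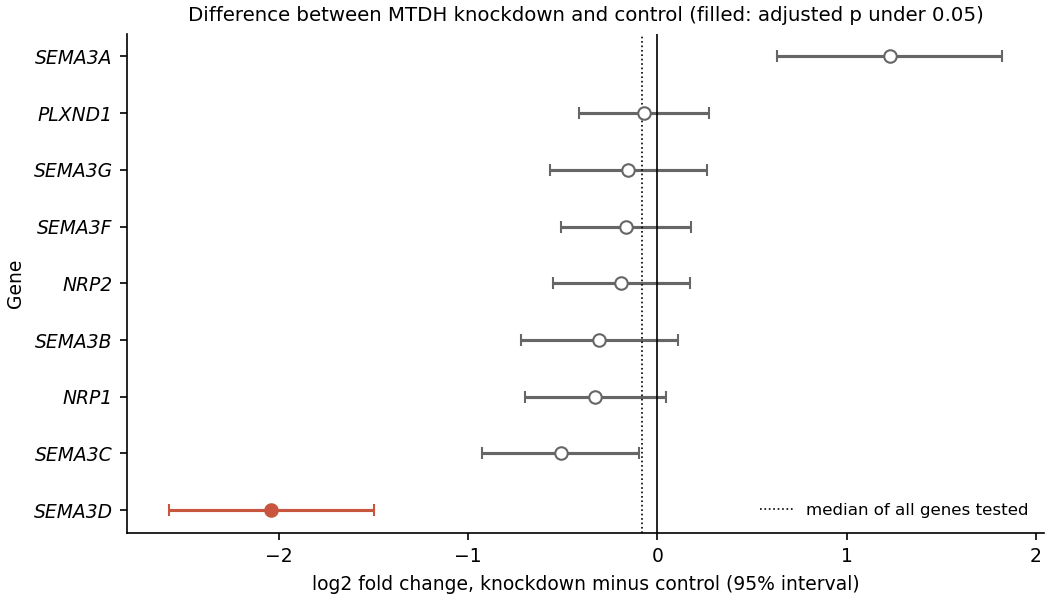
The log2 difference, knockdown minus control, of each member (horizontal axis) with its 95% interval from limma. The filled point, SEMA3D, had an adjusted p under 0.05, the dotted line is the median of all genes tested (-0.08), and the intervals of SEMA3D, SEMA3C and SEMA3A leave out 0.

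SEMA3C, SEMA3A and SEMA3D lie on chromosome 7 in the reference annotation, and in the order of the tested genes SEMA3A and SEMA3D were direct neighbours. Their log2 differences had opposite signs, 1.23 and -2.04. The order ran SEMA3C, HGF, CACNA2D1, PCLO, SEMA3A, SEMA3D, GRM3, ELAPOR2 and DMTF1. CACNA2D1, which codes for a calcium channel subunit, read 3.06, 3.23 and 2.94 on the control arrays and 4.19, 4.54 and 4.12 on the knockdown arrays. These groups were more than 0.5 log2 units apart, and CACNA2D1 rose by 1.20 on the log2 scale (SE 0.18, adjusted p = 0.018, limma). Its adjusted p was above the threshold without control array 1 (0.11) or without knockdown array 1 (0.078), 2 (0.093) or 3 (0.051), and when all rows were tested (0.084).

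The genes between and beside them had differences of both signs, but CACNA2D1, ELAPOR2 and DMTF1, whose groups did not overlap, were all higher in the knockdown. HGF, the ligand of the MET receptor, had a log2 difference of -0.10 and PCLO, a presynaptic scaffold gene, one of 0.07. HGF was very dim, with means of 2.18 in the control and 2.07 in the knockdown. Past SEMA3D, the glutamate receptor gene GRM3 had a difference of -0.26, ELAPOR2 0.59 and DMTF1, a transcription factor gene, 0.60, none of them past the threshold, although the groups did not overlap for ELAPOR2 and DMTF1. Without control array 3 these differences were -0.084, 0.42 and 0.30, and PCLO was at -0.070. Over chromosome 7 as a whole, 3 of 642 tested genes were called and the median difference was 0.03.

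**Figure D3:**
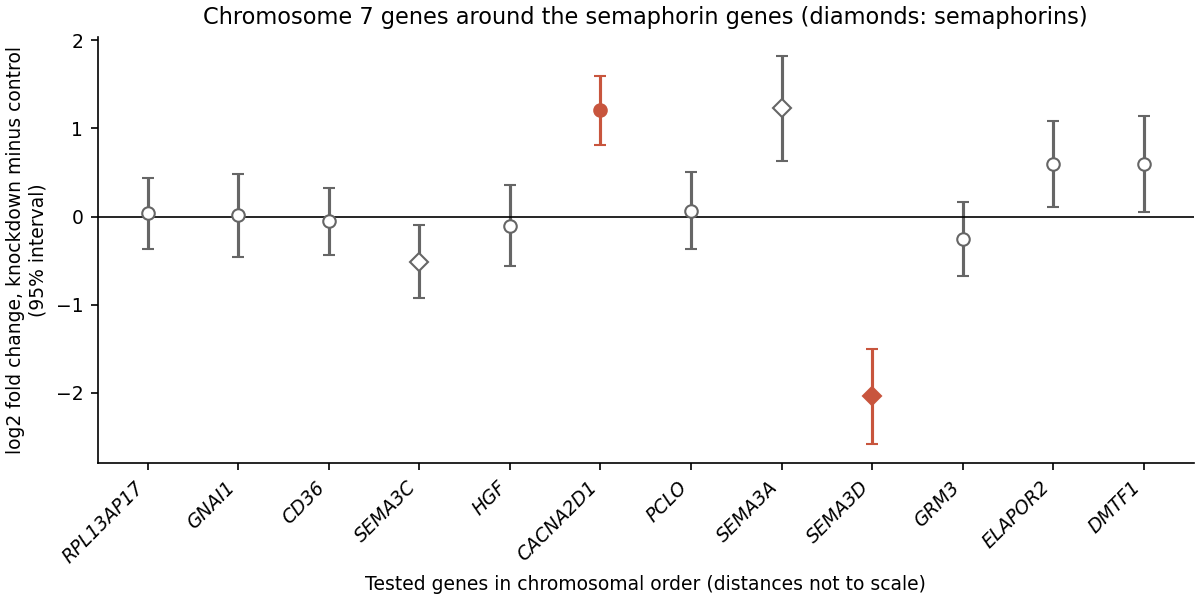
The log2 difference, knockdown minus control, with its 95% interval (vertical axis) for tested genes on chromosome 7 in the order of the reference annotation (horizontal axis, distances not to scale). Diamonds are semaphorin genes and filled points had an adjusted p under 0.05: CACNA2D1 at 1.20 and SEMA3D at -2.04, with SEMA3A at 1.23 beside SEMA3D.

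Counting 3 tested genes on either side of each member or group of neighbouring members, 42 neighbours were measured, 2 were called and 7 did not overlap between the groups, where 0.597% of all genes were called and 20.0% did not overlap. The second called neighbour was TNNC1, the slow troponin C gene, beside SEMA3G on chromosome 3. TNNC1 read 8.54, 8.64 and 7.91 on the control arrays and 6.61, 7.02 and 7.01 on the knockdown arrays, and fell by 1.48 on the log2 scale (adjusted p = 0.018, limma). SEMA3G beside it differed by -0.15. TNNC1's adjusted p was above the threshold without control array 1 (0.12) or without knockdown array 1 (0.096), 2 (0.058) or 3 (0.052), when all rows were tested (0.096) and under centring on the median (0.085).

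The 5 genes whose pattern over the 6 arrays was most like that of SEMA3D, among 2894 that spanned at least 1 log2 unit, were CALB1, ITM2A, MAL, CBLN2 and TUBB6. Their Pearson r ranged from 0.955 to 0.980, a description that rests on the shared gap between the groups. CALB1, a calcium-buffering protein gene (r = 0.980), fell by 1.17 and ITM2A, an integral membrane protein gene (r = 0.969), fell by 1.64 on the log2 scale (adjusted p = 0.010 and 0.0039, limma). CALB1's adjusted p was above the threshold without control array 1 (0.072) or without knockdown array 1 (0.062), 2 (0.055) or 3 (0.053), and when all rows were tested (0.058). MAL, CBLN2 and TUBB6 had log2 differences of -0.85, -0.78 and -0.66, with adjusted p-values of 0.058, 0.091 and 0.16.

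Among the plexins, the receptors that carry the semaphorin signal, PLXND1 included, no gene was called. Of the 9 plexin genes listed, 8 were measured, 7 of these had a negative difference (5 without control array 3 and 5 under quantile normalization), and the median was -0.13. For this list and those below, 60.7% of all genes tested were negative (53.7% without control array 3 and 54.9% under quantile normalization). The plexin A genes, the signalling partners of the neuropilins, gave -0.14 for PLXNA1, -0.11 for PLXNA2, -0.38 for PLXNA3 and -0.07 for PLXNA4. PLXNA1 read 4.94, 4.96 and 5.09 on the control arrays and 4.90, 4.79 and 4.89 on the knockdown arrays, so the groups were apart by less than 0.1. PLXNB3 had the most negative difference of the list, -0.40 (adjusted p = 0.39, limma). Without control array 3, PLXNB3 was at -0.21 and PLXNA3 at -0.18.

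Semaphorins of the other classes, mostly membrane-bound ligands, were measured for 13 of 13 genes and none was called. All 13 differences were negative (10 without control array 3 and 9 under quantile normalization), with a median of -0.15 that became -0.02 without control array 3. Over all genes tested the median of -0.08 also became -0.02 without control array 3. SEMA4B at -0.41 and SEMA4D, the ligand of plexin B1, at -0.35 were the most negative (adjusted p = 0.37 and 0.39, limma), and at -0.27 and -0.24 without control array 3. Other ligands and partners of the neuropilins, such as vascular endothelial growth factors and their receptors, were measured for 18 of 19 genes. None of them was called, 15 were negative (13 without control array 3 and 14 under quantile normalization) and the median was -0.13.

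In that group, MET, the receptor for HGF, read 5.08, 5.55 and 4.81 on the control arrays and 5.79, 5.97 and 5.66 on the knockdown arrays. The groups did not overlap, and the log2 difference was 0.66 (adjusted p = 0.22, limma). PGF, a placental growth factor that binds NRP1, read 3.72, 3.61 and 4.82 on the control arrays and 3.25, 3.13 and 3.97 on the knockdown arrays, with replicate 3 the highest in both groups. The groups overlapped, with a log2 difference of -0.60 (adjusted p = 0.41) that was -0.21 without control array 3, while that of MET was 0.49.

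Inside the cell, plexins act through small GTPases, kinases and CRMP proteins on the cytoskeleton. Of 32 such transducer genes, 28 were measured, none was called, 19 had negative and 9 positive differences, and the median was -0.11. RAC1, a small GTPase gene, had a difference of 0.73 and GSK3B, a kinase gene that acts on CRMP proteins, one of 0.61 (adjusted p = 0.20 and 0.31, limma). Without control array 3 these were 0.58 and 0.33.

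Furin-type convertases cut class 3 semaphorins, and ADAMTS1 is known to cut SEMA3C. All 6 listed protease genes were measured, none was called, and the median was -0.11, which turned to 0.04 under quantile normalization within 2 parts of the table. ADAMTS1 read 6.89, 6.86 and 6.60 on the control arrays and 6.18, 6.10 and 6.06 on the knockdown arrays. The groups did not overlap, and the log2 difference of -0.67 had an adjusted p of 0.12 (limma). Of 14 alternatives, only 1 passed the threshold, quantile normalization, with 0.042 at a difference of -0.82. The adjusted p of ADAMTS1 was 0.43 without knockdown array 2, 0.24 under centring on the median and 0.22 when all rows were tested. FURIN had a difference of -0.20 (adjusted p = 0.59), which was -0.086 without control array 3.

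Among the other axon guidance families (ephrins, netrins, slits and their receptors), 34 of 41 genes were measured and 1 was called. EFNB2, the ephrin-B2 ligand gene, read 5.16, 5.05 and 4.99 on the control arrays and 3.85, 3.89 and 3.86 on the knockdown arrays. Both groups were tight and more than 1 log2 unit apart, and EFNB2 fell by 1.20 on the log2 scale (SE 0.15, adjusted p = 0.0074, limma). The adjusted p was 0.075 without control array 1, 0.062 without knockdown array 1 and 0.051 without knockdown array 3, at nearly the same difference. In this list 27 differences were negative (22 without control array 3) and 7 positive, with a median of -0.16. Over all genes tested, 60.7% were negative (53.7% without control array 3), with a median of -0.08. The plot of the lists sets each gene beside the median of all genes.

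**Figure D4:**
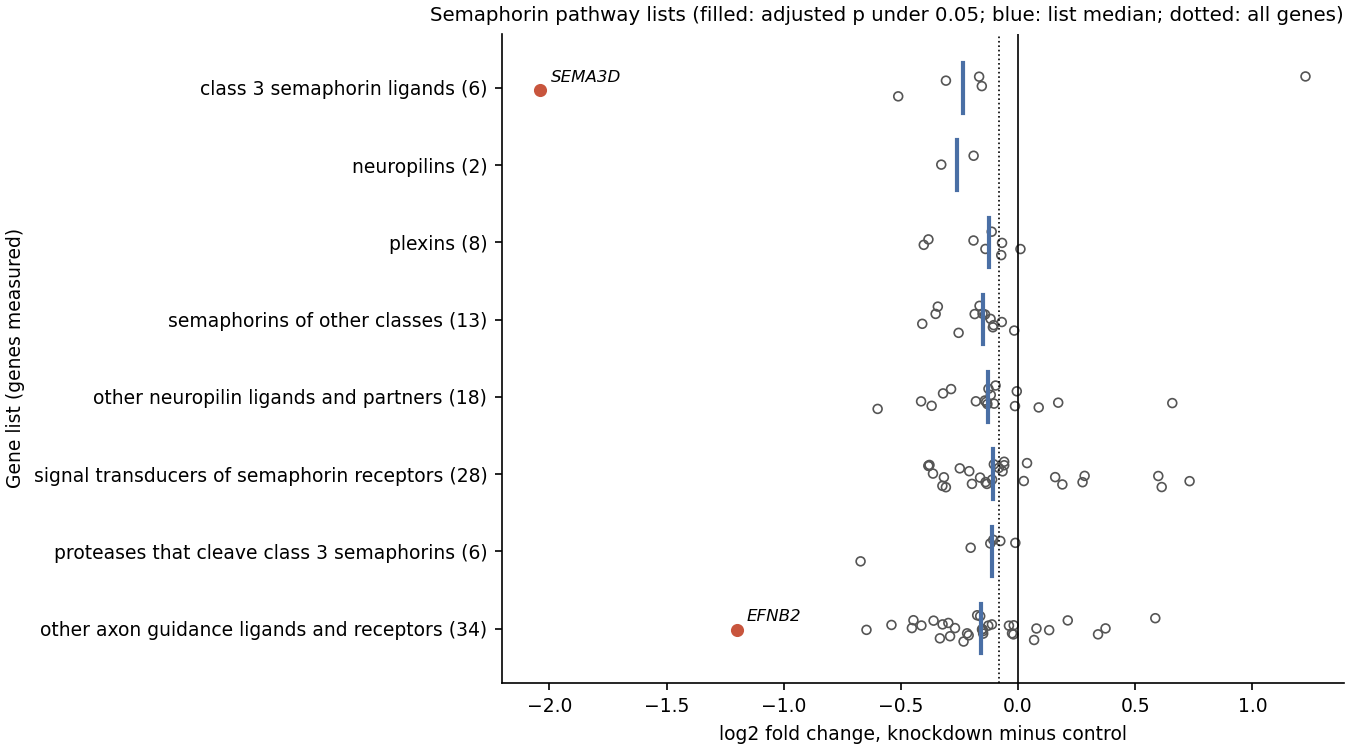
The log2 difference, knockdown minus control (horizontal axis), of every measured gene in 8 lists around the semaphorins (rows, with the number measured). Blue bars are list medians, the dotted line is the median of all genes tested (-0.08) and filled points had an adjusted p under 0.05, which were SEMA3D and EFNB2.

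Markers of cells in which semaphorins are often studied were measured as well. None of the 9 endothelial, 8 neural, 8 fibroblast and smooth muscle and 6 blood cell markers measured was called, and their median differences were -0.17, -0.17, -0.12 and -0.27, or -0.047, -0.13, -0.0075 and -0.14 without control array 3. The summed linear level of the endothelial markers was 120 to 187 on the control arrays and 112 to 136 on the knockdown arrays, so the ranges overlapped, and 5 of the 9 lay below the lower quartile. Of 14 epithelial markers none was called, 10 differences were negative and 4 positive, and the median was -0.12. The epithelial marker sum was 1254 to 1312 on the control arrays and 1097 to 1207 on the knockdown arrays, without overlap. Without KRT8, the brightest of the list, the sums were 850 to 911 and 819 to 916 and overlapped. KRT19 and KRT8, both keratin genes, had the most negative differences of that list, -0.87 and -0.55 (adjusted p = 0.084 and 0.22, limma). EPCAM, an epithelial adhesion gene, had a difference of 0.36 and CDH1, the E-cadherin gene, one of 0.28 (adjusted p = 0.43 for both), a pair picked after their values were seen, with differences of 0.17 and 0.20 without control array 3. The part of these marker levels in the member differences was not tested.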

How the data were processed

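Total RNA of the 6 samples was amplified, biotin-labelled and hybridised to Affymetrix whole-transcript arrays by the authors. The deposited table holds log2 expression values, 1 per transcript cluster and array, made by the authors with Partek Genomics Suite. How the background was corrected and the arrays normalized is not stated, and the deposited values were used unchanged. Gene names came from the platform annotation. Rows with several symbols (2408) or none (5171) were left out, and for each of 14232 genes the row with the highest mean was kept. Groups were compared with limma 3.58.1 (R 4.3.3) by lmFit and eBayes over all genes, with Benjamini-Hochberg adjustment, a threshold of 0.05 and 95% intervals, after a check on simulated data. The number of arrays limits the precision, and 3 against 3 arrays cannot reach an exact permutation p of 0.05. Promoter windows are from RefSeq (GRCh38.p14), and chromosomal order is from its gene table. Members and lists were chosen with earlier results of these data known. Named were all members, MTDH, called genes of each list or else at most 2 with the largest difference, neighbours within 3 tested genes and the 5 genes most like SEMA3D. Named outside this rule were PLXNA1, PLXNA2, PLXNA4, EPCAM, CDH1 and the epithelial markers described by their brightness.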

Additional observations from a re-analysis of the deposited data

How the results depend on the processing

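SEMA3D kept its direction in every alternative that held it. Its call was lost when all rows were tested (0 members called), and a filter that dropped the dimmest 30% of genes removed it with SEMA3C, NRP1 and NRP2 (0 members called). Leaving out 1 array gave 1 to 2 called members. Of 122 member values under alternatives, 117 kept direction and side of the threshold, 1 lost the call (SEMA3D), 2 gained it (SEMA3A) and 2 reversed (PLXND1, 0.016 under quantile normalization and 0.027 under centring). The median of the members was -0.091 under centring, against 0.019 over all genes. It was -0.26 under quantile normalization within 2 parts of the table, against -0.040 over all genes. That setting was chosen after seeing the data because of the step in row order. With 1 array left out the members' median was -0.27 to -0.12, against -0.12 to -0.02 over all genes. Over all genes, 85 were called (53 higher, 32 lower), against 19 (7 and 12) with all rows tested, 48 (29 and 19) under centring, 29 higher and 32 lower under quantile normalization, 50 and 50 within 2 parts, and 12 (without control array 1) to 233 (without control array 2) with 1 array left out. MTDH was at -1.02 with all rows tested (adjusted p = 0.0997) and -0.92 under centring (0.096), neither past the threshold, and at -1.13 to -0.92 with 1 array left out. The SEMA3E and RNF13 row ranged from -0.18 to 0.020 with 1 array left out. Among 35 other named genes, 453 of 482 values kept direction and side, 19 lost and 6 gained the call, and 4 reversed: PCLO (range -0.070 to 0.22 with 1 array left out) at -0.070, -0.014 and -0.0048 without control array 3, knockdown array 1 and knockdown array 2, and HGF (range -0.31 to 0.059) at 0.059 without knockdown array 2. Same-numbered arrays deviated together with correlations of -0.098, 0.47 and 0.31 for replicates 1, 2 and 3, and 4 of 6 arrays correlated best with their own number. These values do not settle whether replicate numbers pair the arrays, and the comparison of the groups did not pair them. With the replicate number as a block, 364 genes (271 higher, 93 lower) and 2 members were called, SEMA3A with an adjusted p of 0.021 among them. The cause of these changes was not tested. Probes near background limit the reading of SEMA3C, SEMA3D, NRP1 and NRP2. The same limit holds for the called genes CACNA2D1 (control mean 3.08) and CALB1 (knockdown mean 3.01). It also holds for the neighbours HGF (control mean 2.18) and GRM3 (knockdown mean 3.41). EFNB2 (knockdown mean 3.86) lay near the lower quartiles of the arrays, 3.71 to 4.06.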
